A study of Mus musculus with 20 samples.

Results

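The response of the mouse left ventricle to transverse aortic constriction (TAC) was compared between control mice (CTL) and mice with a cardiomyocyte-directed deletion in the genes of DNMT3A and DNMT3B (DKO). The quantity followed throughout was the genotype difference in that response, namely the log2 fold change of TAC over sham in DKO minus the same fold change in CTL. All 20 of the 20 arrays of the series entered this comparison: 4 from sham-operated and 6 from TAC-operated CTL mice, and as many of each from DKO mice, each probed with total RNA of the ventricle on an Illumina bead chip. CTL mice were *Dnmt3a* flox/flox, *Dnmt3b* flox/flox without a cre recombinase. DKO mice carried the same floxed alleles and a cre driven by the promoter of *Myl7*, the atrial myosin light chain. This design targets the catalytic domains of both enzymes in cardiomyocytes, while fibroblasts, vessels and blood cells keep them. By the study's measurement, recombination in sorted cardiomyocyte nuclei was frequent but not complete. All mice were male, were operated on at 10 to 12 weeks of age and were studied after 4 weeks, at 14 to 16 weeks. The genetic background was not given in the sources used here. RNA came from whole tissue, so for every gene below fewer cells of a type and less RNA per cell cannot be told apart.

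Aortic constriction forces the left ventricle to pump against a raised pressure, and the muscle answers by growing. Fetal genes such as those of the natriuretic peptides and skeletal α-actin are switched on again, fibroblasts lay down collagen, and genes for fatty acid oxidation and calcium cycling are turned down. DNMT3A and DNMT3B are the enzymes that place new methyl groups on cytosines of CpG dinucleotides, and methylation of CpG-rich promoters is known for keeping genes silent, among them the silent copy of imprinted genes.

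The arrays had been normalized as 2 separate sets, sham and TAC, so that the surgery and the array set cannot be told apart for a response within either genotype. A probe-specific shift between the sets that was common to both genotypes adds to both responses and cancels in their difference. After quantile normalization of all 20 arrays the correlation between arrays of a group ranged from 0.9805 to 0.9939, and no array was a copy of another. A background floor of 57.5 intensity units (5.85 on the log2 scale) was set from 1542 probes for olfactory, vomeronasal and taste receptors, and 21561 of 45281 probes had a group mean above it. The heart identity of the tissue was clear from *Myh6*, the adult α-myosin heavy chain, at 4190 to 7130 intensity units on the 8 sham arrays. The 3 *Dnmt3a* probes lay below the floor in every group mean, and *Dnmt3b* had 1 probe above it, with 110, 110, 111 and 119 units in sham CTL and 104, 105, 106 and 91.3 units in sham DKO. Where these probes lie relative to the deleted exons was not known, so they check nothing about the deletion. Sarcolipin (*Sln*) and the atrial light chain *Myl4* were high in TAC DKO replicates 2 and 3, and several differences that changed without these arrays are given both ways. Of the 76 list genes with an unadjusted p under 0.05 for the difference, all 76 kept the sign and 45 kept a p under 0.05 without them.

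Of all probes, the imprinted gene *Nap1l5* alone passed the test for a different response, and *Krt8* and *Krt18*, whose keratins pair into the filaments of simple epithelia, were among the named genes with the smallest p for the difference in response. The promoters of these 3 genes are shown because the targeted enzymes act on CpG dinucleotides. Each run covers 300 bases, from 250 before the transcription start to 50 after it, read 5′ to 3′ on the gene's own strand from the RefSeq annotation of GRCm38.p6, with each CpG in capitals.
Nap1l5, chr6:58907077-58907376, minus strand: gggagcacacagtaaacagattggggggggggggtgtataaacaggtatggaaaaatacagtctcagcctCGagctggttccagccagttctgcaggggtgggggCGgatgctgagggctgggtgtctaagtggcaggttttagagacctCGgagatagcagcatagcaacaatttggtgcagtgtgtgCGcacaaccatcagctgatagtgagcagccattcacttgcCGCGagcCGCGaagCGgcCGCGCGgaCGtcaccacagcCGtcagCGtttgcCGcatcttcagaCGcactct
Krt8, chr15:102004293-102004592, minus strand: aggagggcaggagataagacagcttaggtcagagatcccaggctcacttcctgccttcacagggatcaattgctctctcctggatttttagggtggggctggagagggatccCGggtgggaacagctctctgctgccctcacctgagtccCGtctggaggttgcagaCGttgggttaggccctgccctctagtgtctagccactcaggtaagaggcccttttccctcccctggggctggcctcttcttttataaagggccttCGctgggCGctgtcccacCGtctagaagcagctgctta
Krt18, chr15:102027966-102028265, plus strand: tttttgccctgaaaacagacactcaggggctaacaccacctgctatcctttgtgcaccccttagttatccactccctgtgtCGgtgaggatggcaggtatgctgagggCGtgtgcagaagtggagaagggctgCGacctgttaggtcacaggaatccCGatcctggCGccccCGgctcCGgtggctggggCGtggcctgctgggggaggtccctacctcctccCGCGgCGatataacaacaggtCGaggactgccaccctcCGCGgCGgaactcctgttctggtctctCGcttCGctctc
The *Nap1l5* and *Krt18* promoters held 17 CpG each, a number reached by 31.4% of 32851 mouse promoters of this length. The *Krt8* promoter held 6, reached by 56.4%, against a median of 7. The arrays measure RNA and not methylation, and the counts describe the sequence only.

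*Nap1l5*, a nucleosome assembly protein gene expressed from the paternal allele, fell after TAC in DKO hearts alone. Its intensity was 50.6, 56.2, 56.4 and 45.5 in sham CTL, and in TAC CTL it ranged from 45.5 to 59.3 with a median of 47.2. In DKO it was 236, 173, 202 and 185 in sham hearts and 64.5 to 107, median 88.6, in TAC hearts. CTL hearts thus lay at the background floor under both surgeries, while the sham and TAC values of DKO hearts did not overlap. The response was −1.25 ± 0.12 (SE, log2) in DKO (limma, adjusted p = 3.59e-08). The difference in response was −1.17 ± 0.17, with a 95% interval from −1.51 to −0.82 (limma, adjusted p = 0.0222). It was the only 1 of 45281 probes called, or 0.00221%, and no probe was called with the response of DKO above that of CTL. Without regard to multiple testing, 2132 probes (4.71%) had p under 0.05, about the share that the threshold itself allows. The size for *Nap1l5* held without any array, at −1.08 or beyond, but its adjusted p rose to between 0.0524 and 0.0983 when any of 5 arrays was left out (replicates 1 and 4 of sham CTL, 1 and 3 of sham DKO, and 3 of TAC CTL).

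*Krt8* went the other way. Its intensity was 56.7, 63.7, 65.6 and 67 in sham CTL and 57.1 to 88.5, median 60, in TAC CTL. In DKO it was 80.9, 91.8, 100 and 108 in sham and 161 to 226, median 196, in TAC hearts, so that every TAC DKO array lay above every other array of the series. The response was 0.02 ± 0.11 in CTL and 1.01 ± 0.11 in DKO (limma, adjusted p = 3.78e-07). The difference of 0.99 ± 0.16 (0.66 to 1.32) missed the threshold at a limma adjusted p of 0.0644, and without TAC DKO replicates 2 and 3 it passed at 0.0236. Its partner *Krt18* was below the floor on all 14 arrays outside TAC DKO, at 44.2 to 57.3, and lay between 62.4 and 66.4 on the 6 TAC DKO arrays. TAC DKO hearts thus stood at least 1.12-fold above sham DKO hearts (limma, adjusted p = 0.000135), with a fitted difference in response of 0.48 ± 0.10 (limma, adjusted p = 0.939). Of 25 simple epithelial genes measured, 11 were above the floor and *Krt8* was the only called member. The list's mean, which includes *Krt8* and *Krt18*, was 0.02 to 0.07 on the TAC DKO arrays and −0.06 to 0.01 on the other 14 arrays. It was not taken without these genes, so the lack of overlap does not show a shift of the other members.

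**Figure D1:**
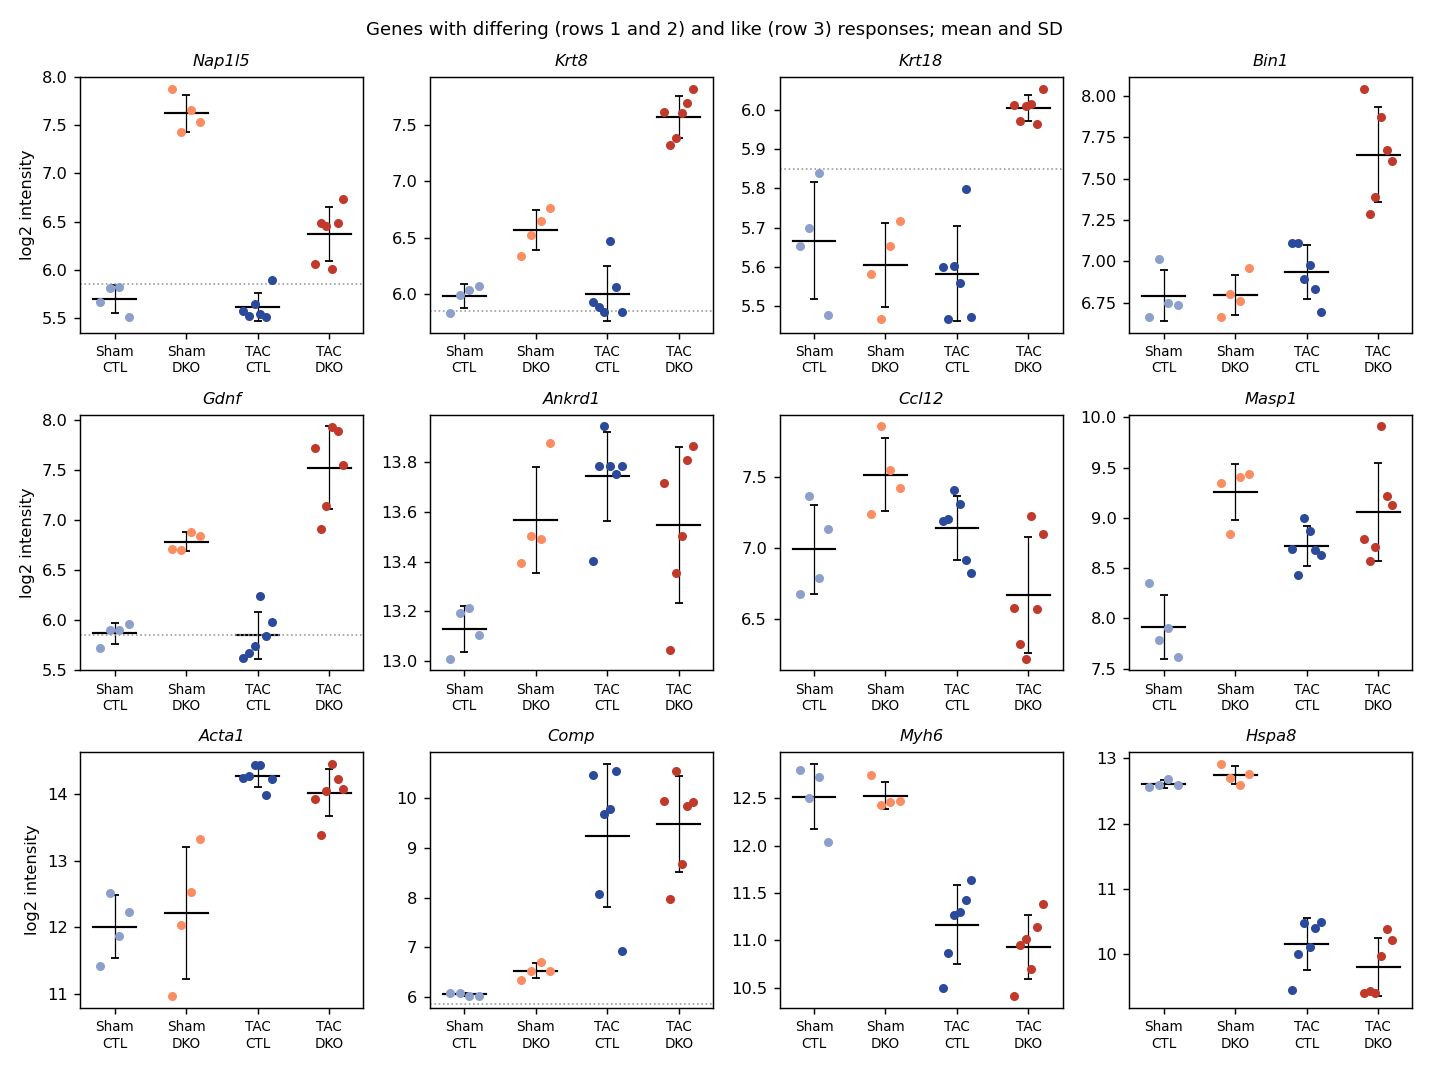
Log2 intensity of 12 genes on each of the 20 arrays, by group, with points for arrays, the line and bars for mean and SD, and the dotted line for the background floor at 5.85. Nap1l5 fell in DKO alone, Krt8 and Krt18 are highest in TAC DKO, and Acta1, Comp, Myh6 and Hspa8 in the last row moved in the same direction in both genotypes.

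Across the array the responses of the 2 genotypes were alike. TAC moved 798 probes up (1.76% of those tested) and 1541 down (3.4%) in CTL, and 1116 up (2.46%) and 1934 down (4.27%) in DKO. A probe was counted where limma gave an adjusted p under 0.05 together with more than a 1.5-fold change. Higher and lower calls depended on the scaling: with the deposited arrays centred on their medians they were 186 and 3848 in CTL and 204 and 4166 in DKO. Both genotypes shared 626 higher and 1430 lower probes, and 0 probes were higher in 1 genotype and lower in the other. Shared probes made up 87.9% of the CTL calls and 67.4% of the DKO calls. Over all 45281 probes the log2 fold changes in DKO and CTL had a Pearson correlation of 0.906 and a Spearman correlation of 0.78. Over the 21561 probes above the floor these were 0.93 and 0.894, and over the 3333 probes called in either genotype the Pearson correlation was 0.965, with 3322 probes (99.7%) of the same sign. The 2 responses use different arrays but the same 2 array sets. Over the 1542 receptor probes, which measure background, the correlation was still 0.553, with fold changes whose SD was 0.11 in CTL and 0.13 in DKO against 0.4 and 0.45 over probes above the floor. The share of the correlation due to the sets was not tested.

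**Figure D2:**
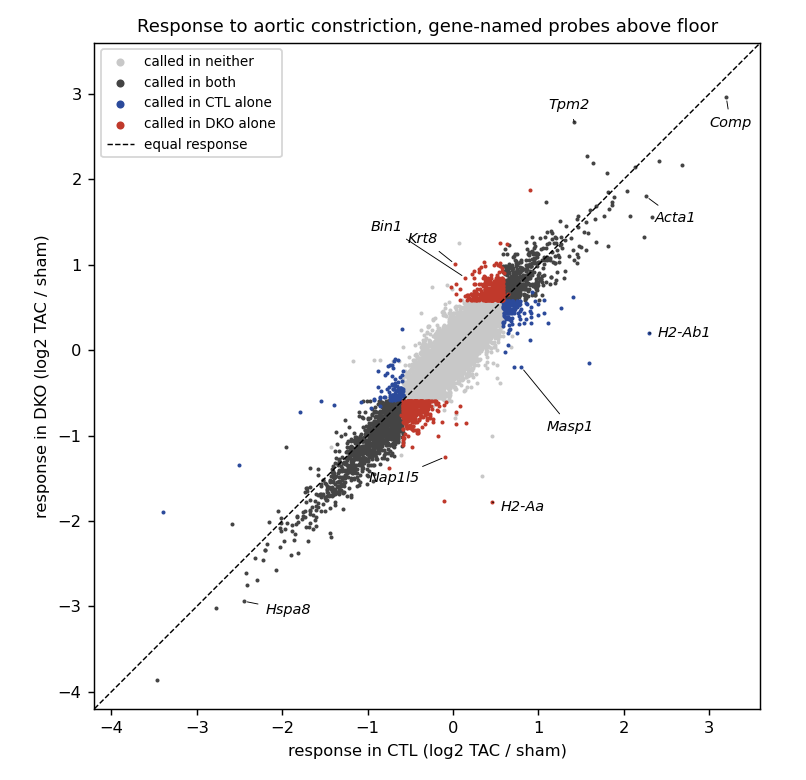
Log2 fold change of TAC over sham in CTL (horizontal axis) and in DKO (vertical axis) for 18257 named probes above the floor, coloured by the genotype in which they were called, with the line of equal response. Probes lie along the line, and Nap1l5, Krt8 and the class II genes H2-Aa and H2-Ab1 stand away from it.

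Most probes called in 1 genotype alone leaned the same way in the other. Of 490 probes called higher in DKO alone, 489 had the same sign in CTL and 404 had an adjusted p under 0.05 there as well, with a median response of 0.65 in DKO and 0.48 in CTL. Of 504 called lower in DKO alone, 499 had the same sign in CTL and 384 an adjusted p under 0.05, with medians of −0.68 and −0.48. CTL alone had 172 higher probes, of which 168 had the same sign in DKO, and 111 lower probes, of which 110 did. The difference had an unadjusted p under 0.05 for 184 of the 994 probes called in DKO alone and for 37 of the 283 called in CTL alone. As these probes were picked by their size in 1 genotype, a smaller median in the other is in part set by the choice.

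The precision of the comparison was given by the 95% intervals of the difference. For the 3333 probes called in either genotype the median half-width was 0.34 on the log2 scale. The interval lay within 1.5-fold either way for 2105 of them (63.2%) and within 2-fold for 3144 (94.3%). It excluded 0 for 300 (9%), and for 79 of the 2056 probes called in both genotypes (3.84%). As the latter were picked for passing in each genotype, their smaller share is in part set by the choice.

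The fold changes were on the whole a little larger in DKO, by an amount within the spread between mice. The total least squares slope of DKO on CTL was 1.14 over all probes, with a jackknife SE over arrays of 0.12. For the 798 probes called higher in CTL the median fold change was 0.73 in CTL and 0.76 in DKO, and for the 1541 called lower it was −0.86 and −0.99. Chosen in DKO instead, the 1116 higher probes had medians of 0.62 in CTL and 0.72 in DKO, and the 1934 lower probes −0.76 and −0.89. On each array, the median of the CTL-chosen higher probes relative to the sham mean of the same genotype ranged from 0.59 to 0.91 in TAC CTL and from 0.64 to 0.83 in TAC DKO. For the CTL-chosen lower probes it ranged from −1.11 to −0.74, median −0.83, in TAC CTL and from −1.12 to −0.81, median −1.06, in TAC DKO. The genotypes overlapped in both directions.

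**Figure D3:**
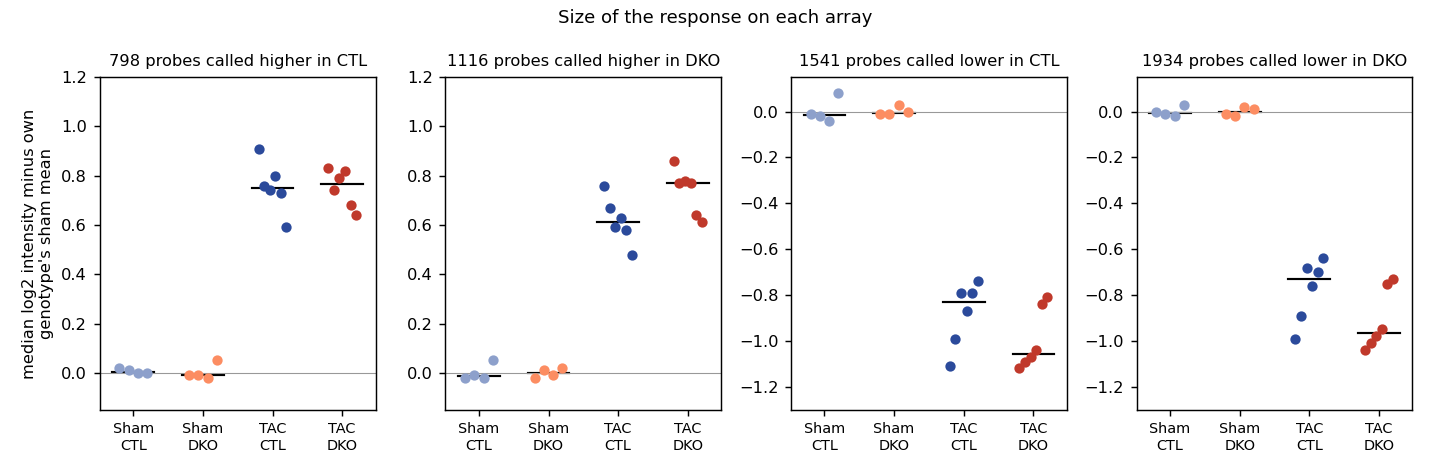
Median log2 change from the sham mean of the same genotype on each of the 20 arrays, for the 798 and 1541 probes called higher and lower in CTL and the 1116 and 1934 called higher and lower in DKO, with the group median as a black line. TAC CTL and TAC DKO arrays overlap in all 4 sets of probes.

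Among the fetal genes, *Acta1*, skeletal α-actin, had 2730, 5840, 3740 and 4810 units in sham CTL and 2000, 4220, 5920 and 10300 in sham DKO. After TAC it ranged from 16200 to 22100, median 19600, in CTL and from 10800 to 22400, median 17100, in DKO. No TAC array overlapped the sham arrays, and the genotypes overlapped after TAC. It rose by 2.26 ± 0.29 in CTL (limma, adjusted p = 3.16e-06) and by 1.80 ± 0.29 in DKO (limma, adjusted p = 3.76e-05), a difference of −0.45 ± 0.41 (−1.29 to 0.38). Without TAC DKO replicates 2 and 3 the difference was −0.30. *Myh6*, which gives way to the slower β-isoform in the loaded ventricle, fell by 1.35 ± 0.19 in CTL and by 1.59 ± 0.19 in DKO. Its sham values of 4190 to 7130 lay above the TAC values of 1360 to 3180 in both genotypes, and the difference was −0.24 ± 0.27 (−0.80 to 0.31). A second, brighter *Myh6* probe moved less. It had 24500 to 25800 units in sham CTL and 16100 to 24000 in TAC CTL. In DKO it had 22400 to 24900 in sham and 9560 to 21800 in TAC hearts. The β-isoform *Myh7* rose by 1.04 ± 0.34 and 1.05 ± 0.34 (limma, adjusted p = 0.0321 and 0.0249), a difference of 0.01 with an interval from −1.0 to 1.02, and these calls were lost under several other settings.

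*Nppa*, atrial natriuretic peptide, had 3660, 7890, 7570 and 2610 units in sham CTL and 7280, 10200, 11400 and 17700 in sham DKO. In TAC hearts it ranged from 8610 to 31800, median 27800, in CTL and from 22400 to 29600, median 29000, in DKO, close to the top of the array's range. The fold change was 2.24 ± 0.32 in CTL and 1.32 ± 0.32 in DKO, and the difference of −0.92 ± 0.45 (−1.84 to 0.01) missed the threshold (limma, unadjusted p = 0.0522 and adjusted p = 0.939). Without TAC CTL replicate 6, the lowest TAC array, the difference was −1.20 (limma, unadjusted p = 0.00225), and without sham CTL replicate 4, the lowest sham array, it was −0.61 (limma, unadjusted p = 0.159). *Nppb*, the B-type peptide, rose by 0.80 ± 0.20 in CTL (limma, adjusted p = 0.00505), had 0.48 ± 0.20 in DKO (limma, adjusted p = 0.0819), and differed by −0.32 ± 0.29, or by −0.11 without TAC DKO replicates 2 and 3. Of 22 hypertrophy and fetal program genes measured, 11 rose in CTL, 11 rose in DKO and 9 in both, and none fell, while over all 19057 genes 523 rose (2.74%) and 800 fell (4.2%) in CTL and 760 rose (3.99%) and 986 fell (5.17%) in DKO.

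*Ankrd1*, a titin-binding protein induced by stretch, was the hypertrophy gene whose response differed the most clearly. It had 8250, 9360, 9500 and 8820 units in sham CTL and 10800, 11600, 11500 and 15100 in sham DKO. In TAC CTL it ranged from 10800 to 15800, median 14100, and in TAC DKO from 8440 to 14900, median 12600. All TAC CTL arrays lay above all sham CTL arrays, whereas sham and TAC overlapped in DKO. It rose by 0.61 ± 0.13 in CTL (limma, adjusted p = 0.00111) and had −0.02 ± 0.13 in DKO. The difference was −0.63 ± 0.18 (−1.01 to −0.25, limma, unadjusted p = 0.00224), and a second *Ankrd1* probe gave −0.91 ± 0.32. Without sham CTL replicate 4 the second probe gave −0.62. Without TAC DKO replicates 2 and 3 the first probe gave −0.45 and the second −0.67. The rise in CTL depended on the setting: it was 0.20 with the deposited arrays centred on their medians (limma, adjusted p = 0.286) and under the fold threshold at 0.53 with the replicate block and at 0.57 without sham CTL replicate 1 or TAC CTL replicate 3. The sham median of DKO hearts, 11600, lay between the sham and TAC medians of CTL hearts, 9090 and 14100.

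Other genes of the Z-disc, the structure that anchors the thin filaments, also had a lower response in DKO, though with other values in CTL. *Ankrd23*, a close relative of *Ankrd1*, had 0.03 in CTL and fell in DKO by 0.72, a difference of −0.76 ± 0.27. *Myot*, myotilin, had 0.55 ± 0.20 in CTL and −0.39 ± 0.20 in DKO, a difference of −0.94 ± 0.29. Without TAC DKO replicates 2 and 3 the difference was −0.53 for *Ankrd23* and −0.74 for *Myot*. *Fhl2* and the small chaperone *Cryab* fell in DKO, by 0.91 and 0.86, and had −0.50 and −0.33 in CTL. In all, 6 of 27 sarcomere and Z-disc genes had a difference below 0 with an unadjusted p under 0.05 and none had one above 0, against 426 (2.24%) below and 595 (3.12%) above over all genes. The median difference of the list was −0.13, against 0.01 over all genes. Without TAC DKO replicates 2 and 3 the count was 3 of 27. The list's mean ranged from 0.02 to 0.08 in sham DKO, above all sham CTL arrays (−0.15 to 0), and overlapped between genotypes after TAC (−0.05 to 0.11 in CTL, −0.20 to 0.10 in DKO). *Mybpc3*, myosin-binding protein C, rose in CTL by 0.77 ± 0.07 and had 0.53 ± 0.07 in DKO, under the fold threshold. *Xirp2*, a protein of the intercalated disc, had 0.14 in CTL and −0.47 in DKO.

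Of 28 calcium handling and T-tubule genes, 3 fell in CTL, and these 3 fell in DKO as well. *Pln*, the phospholamban that restrains the calcium pump, fell in both genotypes, with a response of −1.64 ± 0.19 in CTL and −1.93 ± 0.19 in DKO, and *Ryr2*, the calcium release channel, fell by 0.85 and 0.96. *Atp2a2*, the pump itself, fell by 0.75 ± 0.12 and 0.85 ± 0.12 on 1 probe, whereas its other 2 probes above the floor were not called. *Bin1*, which shapes the T-tubule membrane, was called in DKO alone. It had 101, 129, 108 and 107 units in sham CTL and 101, 112, 108 and 124 in sham DKO. After TAC it ranged from 103 to 138, median 122, in CTL and from 156 to 264, median 200, in DKO, so that all 6 TAC DKO arrays lay above the other 14. It rose in DKO by 0.85 ± 0.12 (limma, adjusted p = 6.89e-06) and had 0.14 ± 0.12 in CTL, a difference of 0.71 ± 0.17 (0.36 to 1.05, limma, unadjusted p = 0.000322 and adjusted p = 0.939). The T-type calcium channel *Cacna1h* also rose in DKO, by 0.89 ± 0.19, and had 0.22 ± 0.19 in CTL. *Jph1*, a junctophilin that ties T-tubules to the calcium store, fell by 1.11 in DKO and had −0.58 in CTL. The *Jph1* difference of −0.53 was −0.41 without TAC DKO replicates 2 and 3 (limma, unadjusted p = 0.0978). Of the 28 genes of this list, 3 had a difference above and 3 below 0 at an unadjusted p under 0.05. The shares over all genes were 3.12% above and 2.24% below. *Kcnk3*, a background potassium channel, fell in CTL by 0.77 ± 0.11 (limma, adjusted p = 2.62e-05) and had −0.27 ± 0.11 in DKO. Its sham CTL values of 562, 710, 641 and 963 lay above the TAC CTL range of 389 to 456, whereas sham DKO (586, 559, 597 and 601) and TAC DKO (402 to 587) overlapped.

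The matrix response was shared by most of its genes. *Comp*, cartilage oligomeric matrix protein, had 67.9, 67.5, 65 and 64.8 units in sham CTL and 81.4, 91.8, 105 and 92.4 in sham DKO. After TAC it ranged from 122 to 1510, median 854, in CTL and from 251 to 1500, median 947, in DKO. Every TAC array was above every sham array, and the spread within TAC was wide in both genotypes. It rose by 3.20 ± 0.53 and 2.96 ± 0.53 (limma, adjusted p = 8.44e-05 and 0.000148), a difference of −0.24 ± 0.75 with an interval from −1.79 to 1.31. Without TAC CTL replicate 6 it was −0.71 (limma, unadjusted p = 0.246) and without TAC DKO replicates 2 and 3 it was −0.13. *Col1a1*, the main fibrillar collagen chain, rose by 1.56 ± 0.26 in CTL and 1.17 ± 0.26 in DKO. Its difference was −0.39 (limma, unadjusted p = 0.3), and −0.59 without TAC CTL replicate 6 (limma, unadjusted p = 0.0832). *Timp1*, an inhibitor of matrix proteases, rose by 1.88 and 1.79, the collagen crosslinker *Lox* by 1.60 and 1.64, and the microfibril gene *Mfap4* by 2.04 and 1.86. Of 38 matrix genes, 25 rose in CTL, 24 in DKO and 23 in both, with median responses of 0.74 and 0.78. Over all genes 2.74% rose in CTL and 3.99% in DKO. *Col3a1* was the only member that fell, in both genotypes, and *Fbln1*, fibulin 1, was the only member with an unadjusted p under 0.05 for the difference, at −0.61 ± 0.29. The markers of fibroblasts, which make this matrix, moved alongside. Of 19, 6 rose and 2 fell in CTL and 7 rose and 2 fell in DKO, and their list's mean ranged from −0.30 to −0.12 in sham CTL, −0.32 to −0.11 in sham DKO, −0.21 to 0.41 in TAC CTL and −0.15 to 0.27 in TAC DKO. The part of fibroblast number in the matrix response was not tested.

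Called genes of 3 metabolic lists fell in both genotypes for the most part. Over all genes 4.2% fell in CTL and 5.17% in DKO. Of 28 genes of fatty acid uptake and oxidation, 8 fell in CTL and 9 in DKO, all 8 being shared, and none rose. *Hadhb*, a subunit of the mitochondrial trifunctional protein, fell by 1.18 ± 0.13 and 1.44 ± 0.13, and *Pdk4*, the kinase that holds back glucose oxidation, fell with responses of −1.43 ± 0.31 and −1.63 ± 0.31. Of 45 electron transport genes, 9 fell in CTL and 11 in DKO. *Atp5a1*, a subunit of ATP synthase, fell by 2.03 ± 0.18 and 2.30 ± 0.18. Of 31 genes of the tricarboxylic acid cycle and branched-chain amino acid breakdown, 10 fell in CTL and 11 in DKO, among them *Dld*, shared by several dehydrogenase complexes, with responses of −2.07 ± 0.21 and −2.57 ± 0.21. No gene of the fatty acid list had an unadjusted p under 0.05 for the difference, and the other 2 lists had 1 each, above 0. *Bdh1*, which oxidises the ketone body hydroxybutyrate, rose instead, by 1.09 ± 0.23 in CTL and 1.74 ± 0.23 in DKO, a difference of 0.65 ± 0.33 (−0.02 to 1.33).

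**Figure D4:**
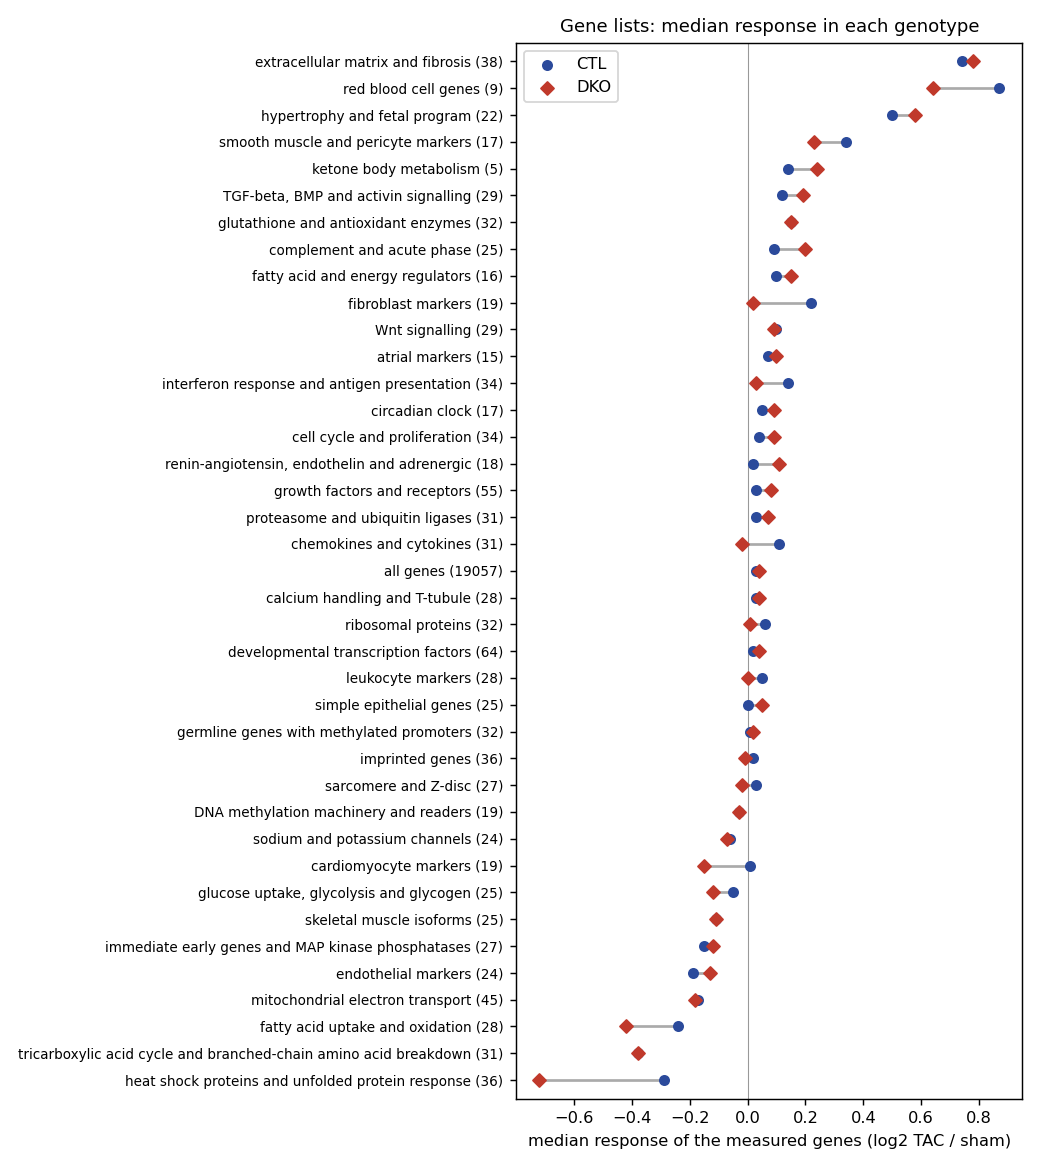
Median log2 response to TAC of 38 gene lists in CTL and DKO, with the number of measured genes in parentheses and all 19057 genes for reference. The medians of CTL and DKO lie close together for most lists, with the heat shock list further below 0 in DKO (−0.72 against −0.29, with a median difference per gene of −0.21).

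Of the heat shock and unfolded protein response genes, more fell in DKO than in CTL. Of 36, 12 fell in CTL, all of which fell in DKO too, and 18 fell in DKO, while 2 rose in each. Over all 19057 genes more also fell in DKO (986, 5.17%) than in CTL (800, 4.2%). The median response was −0.29 in CTL and −0.72 in DKO, the median difference per gene was −0.21, and 8 members had a difference below 0 with an unadjusted p under 0.05 (*Cryab*, *Dnajb4*, *Dnajb5*, *Dnajb9*, *Hsp90aa1*, *Hspb7*, *Hspd1* and *Sdf2l1*), with none above. The shares over all genes were 2.24% below and 3.12% above. *Dnajb4*, a co-chaperone of HSP70, had 333, 441, 344 and 343 units in sham CTL and 408, 501, 359 and 370 in sham DKO. In TAC hearts it ranged from 84.3 to 189, median 134, in CTL and from 58.9 to 132, median 88.8, in DKO. Sham and TAC did not overlap in either genotype, while the genotypes overlapped after TAC. The response was −1.43 in CTL and −2.19 in DKO, a difference of −0.76 ± 0.31 (−1.40 to −0.11) that was −0.50 without TAC DKO replicates 2 and 3 (limma, unadjusted p = 0.0942). The cytosolic chaperone *Hsp90aa1* fell by 1.90 and 2.40, a difference of −0.50 ± 0.24 (−1.0 to −0.01), and the constitutive HSP70 *Hspa8* fell with responses of −2.45 ± 0.19 and −2.94 ± 0.19, a difference of −0.49 ± 0.27 (−1.04 to 0.07). Without TAC DKO replicates 2 and 3 the differences were −0.30 for *Hsp90aa1* (limma, unadjusted p = 0.186) and −0.29 for *Hspa8* (limma, unadjusted p = 0.271). The *Hspa8* probe counted in the list had −0.51 and −0.72. The count of 8 members fell to 1 without TAC DKO replicates 2 and 3 and ranged from 4 to 12 when any 1 array was left out, with 4 without sham DKO replicate 2 and 12 without TAC CTL replicate 1. The list's mean overlapped between genotypes in sham hearts (0.16 to 0.31 in CTL, 0.27 to 0.55 in DKO) and after TAC (−0.29 to −0.08 in CTL, −0.39 to −0.12 in DKO).

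Among the secreted factors, *Gdnf*, glial cell line-derived neurotrophic factor, rose in DKO and was not called in CTL. Its sham values were 52.6, 59.8, 59.6 and 62.1 in CTL and 105, 104, 118 and 115 in DKO. After TAC they ranged from 49.1 to 75.8, median 55.4, in CTL and from 120 to 243, median 199, in DKO. CTL values were near the floor throughout and DKO values did not overlap between surgeries. The response was 0.74 ± 0.15 in DKO (limma, adjusted p = 0.00072) and −0.02 ± 0.15 in CTL, a difference of 0.76 ± 0.22 (limma, unadjusted p = 0.00199). Without TAC DKO replicates 2 and 3 it was 1.01 (limma, adjusted p = 0.0236). *Ret*, which encodes the receptor tyrosine kinase through which GDNF signals, fell in CTL by 0.80 ± 0.12 and had −0.29 ± 0.12 in DKO. *Fgf7*, a growth factor for epithelial cells, fell in DKO by 0.65 ± 0.18 from sham values of 223, 177, 157 and 182 to a TAC range of 83.2 to 205. In CTL it had 0.08 ± 0.18, with values near the floor (56.2 to 72.3 in sham and 55.3 to 81.2 in TAC hearts). This left little room for a fall in CTL. *Hbegf*, an EGF family ligand, rose by 0.91 in CTL and had 0.50 in DKO. *Igf1*, insulin-like growth factor 1, rose alike by 0.99 and 1.13. Of 55 growth factors and receptors, 3 had a difference above and 2 below 0 at an unadjusted p under 0.05, near the shares over all genes of 3.12% and 2.24%.

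Immune genes showed separate differences in both directions, none of which passed the threshold. *Masp1*, a protease of the lectin pathway of complement, had 328, 220, 240 and 197 units in sham CTL and 651, 457, 679 and 694 in sham DKO. It ranged from 345 to 513, median 412, in TAC CTL and from 379 to 963, median 502, in TAC DKO. It rose in CTL by 0.80 ± 0.19 (limma, adjusted p = 0.00358), while sham DKO hearts already lay at 457 or above. In DKO it had −0.20 ± 0.19, a difference of −1.0 ± 0.27 (−1.57 to −0.44, limma, adjusted p = 0.939). Without TAC DKO replicates 2 and 3 the *Masp1* difference was −0.80. *Ccl12*, a chemokine that draws monocytes, had 102, 164, 110 and 140 units in sham CTL and 151, 232, 187 and 172 in sham DKO. After TAC it ranged from 113 to 170, median 146, in CTL and from 74.4 to 149, median 95, in DKO. It fell in DKO by 0.85 ± 0.18 (limma, adjusted p = 0.000714), without overlap of sham and TAC. In CTL it had 0.15 ± 0.18, a difference of −1.0 ± 0.25 (−1.52 to −0.48, limma, adjusted p = 0.939). Without TAC DKO replicates 2 and 3 the *Ccl12* difference was −0.81. Of 25 complement and acute phase genes, 8 rose in CTL and 6 in DKO, with *C4b* at 1.68 and 1.27 and *Serpina3n*, a protease inhibitor, at 2.33 ± 0.34 and 1.56 ± 0.34. Of these 25, 2 had a difference above and 2 below 0 at an unadjusted p under 0.05. Of 31 chemokines and cytokines, 1 had one above and 2 below, against 3.12% above and 2.24% below over all genes. *Cxcl9*, *Retnla* and *Orm1* had differences above 0, of 0.49, 0.63 and 0.37. Of 28 leukocyte markers, 3 rose and 2 fell in CTL and 2 rose and 3 fell in DKO. Over all genes 2.74% rose and 4.2% fell in CTL, and 3.99% rose and 5.17% fell in DKO. The macrophage marker *Adgre1* fell in DKO by 0.94 and had −0.44 in CTL. The summed level of the leukocyte list overlapped between genotypes in sham (−0.25 to 0.04 in CTL, −0.07 to 0.05 in DKO) and after TAC (−0.13 to 0.33 and −0.07 to 0.10), and its part in these differences was not tested.

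Immediate early genes, which answer a stimulus within minutes, and clock genes, which cycle over the day, had called responses of the same direction in both genotypes. *Egr1* fell by 2.59 ± 0.29 in CTL and by 2.04 ± 0.29 in DKO, and *Fos* by 2.05 and 1.88. The clock factor *Arntl* fell by 1.64 and 2.10, while its output *Dbp* rose by 1.46 and 1.57 and the repressor *Ciart* by 1.57 and 2.27. Not every member was alike: *Atf3*, a stress-induced factor, had 0.52 in CTL and −0.33 in DKO, a difference of −0.85 ± 0.35. *Dusp6*, a MAP kinase phosphatase, had a difference of 0.30 and the clock repressor *Nr1d1* one of 0.40, each with an unadjusted p under 0.05. Among cell cycle genes *Cdkn1c*, an imprinted inhibitor of cyclin-dependent kinases, rose in DKO by 0.97 ± 0.17 and had 0.33 ± 0.17 in CTL, a difference of 0.64 ± 0.25. Of 36 imprinted genes, 2 had a difference above 0 at an unadjusted p under 0.05 (*Cdkn1c* and *Dlk1*) and 2 below (*Nap1l5* and *Nckap1*). The shares over all genes were 3.12% above and 2.24% below. The transporters *Slc17a7* and *Slc9a3* were higher in DKO than in CTL hearts under both surgeries. *Slc17a7* rose by 0.95 ± 0.12 in CTL and 1.14 ± 0.12 in DKO, and *Slc9a3* by 0.87 ± 0.26 and 1.18 ± 0.26, with differences of 0.19 ± 0.18 and 0.31 ± 0.36. None of 32 germline genes was called in either genotype, and 10 of these were above the floor. Of 64 developmental transcription factors, 6 had a difference below 0 at an unadjusted p under 0.05, among them the cardiac factors *Gata4* (−0.48 ± 0.20) and *Gata6* (−0.35 ± 0.15), and none had one above, against 2.24% below and 3.12% above over all genes. Without TAC DKO replicates 2 and 3, p stayed under 0.05 for *Hoxd4* and *Hoxd8* among these. Every group mean of *Hoxd4* lay below the floor, with arrays at 41 to 59.7 units.

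The differences of greatest size were of another kind. Of 18257 named probes above the floor, 15 had a difference larger than 1 on the log2 scale either way, and 8 of those lay on chromosome 17, where the major histocompatibility complex is (*H2-Aa*, *H2-Ab1*, *H2-D1*, *H2-Ea*, *H2-K1*, *H2-Q5*, *Abhd16a* and *Adgrf5*). These genes were singled out after their values were seen. The other 7 were *Nap1l5*, *Masp1*, *Ccl12*, *Psca*, *Pvalb*, *Sln* and *Tpm2*. *H2-Ea*, an antigen-presenting class II chain that some mouse haplotypes do not express, had 1180, 1460, 684 and 46.9 units in sham CTL and 54.9, 489, 631 and 47.3 in sham DKO, and 42 to 50 on all 12 TAC arrays. *H2-D1*, a class I chain, had the same pattern, with 640, 838, 406 and 54.8 in sham CTL, 49.1, 360, 354 and 57.4 in sham DKO, and 47.6 to 63.2 after TAC. Within a sham group some mice were thus at background and others far above it. The *H2-Ab1* probe ran opposite in part, with 54.3, 53, 453 and 543 in sham CTL and 839, 314, 438 and 798 in sham DKO, and with 531 to 1390 in TAC CTL and 328 to 889 in TAC DKO. *Abhd16a*, a lipase gene within the complex, had 58.8, 70.4, 501 and 865 in sham CTL and 814, 418, 463 and 879 in sham DKO, against 445 to 711 on the TAC arrays. Sham CTL replicates 1 and 2 were at or near the floor for these probes and for *H2-Aa*, and no other array was for *H2-Ab1* or *Abhd16a*. Over all arrays *H2-Ab1* had a difference of −2.10 ± 0.73 and *H2-Aa* one of −2.24 ± 0.72 (limma, unadjusted p = 0.00887 and 0.00501). Without sham CTL replicates 1 and 2 these were −0.49 and −0.70 (limma, unadjusted p = 0.312 and 0.172), and the call of *H2-Ab1* as higher after TAC in CTL was lost. Other class II genes did not step in this way. *H2-Eb1* had 482, 567, 562 and 336 in sham CTL and 549, 379, 520 and 501 in sham DKO, with a difference of −0.23 (limma, unadjusted p = 0.508), and *Cd74*, the invariant chain, had one of −0.54 (limma, unadjusted p = 0.143). Whether inherited differences between the mice take part in these values was not tested.

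**Figure D5:**
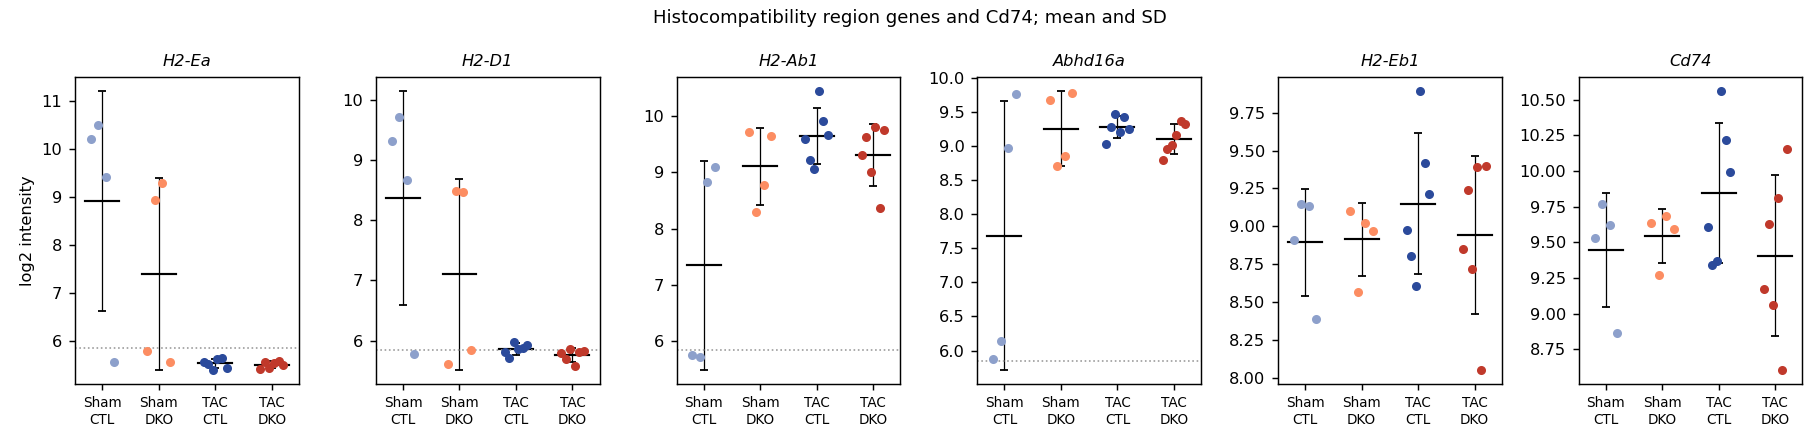
Log2 intensity of 5 genes of the histocompatibility region and of Cd74 on each of the 20 arrays, with points for arrays, the line and bars for mean and SD, and the dotted line for the floor at 5.85 where it falls in range. H2-Ea and H2-D1 are at or near the floor on some sham arrays and on the TAC arrays, H2-Ab1 and Abhd16a are low in sham CTL replicates 1 and 2, and H2-Eb1 and Cd74 are above the floor on every array.

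Of the remaining large differences, several rested on a few arrays. *Tpm2*, β-tropomyosin, had 50.3, 165, 48.1 and 49.8 units in sham CTL and 60, 62, 63.6 and 98.4 in sham DKO, and ranged from 111 to 474, median 164, in TAC CTL and from 251 to 681, median 450, in TAC DKO. It rose in both genotypes, by 1.42 ± 0.35 and 2.67 ± 0.35, a difference of 1.25 ± 0.49 that was 0.82 without sham CTL replicate 2. A second, brighter *Tpm2* probe rose by 0.72 and 1.10. *Pvalb*, a calcium buffer of fast skeletal muscle, was at 1300 in sham CTL replicate 2 and at 110 or lower on the other sham arrays. *Sln*, atrial sarcolipin, was at 409 and 1150 in TAC DKO replicates 2 and 3 and at 90.9 or lower elsewhere. *Psca*, a surface antigen of epithelia, had 68.4, 643, 335 and 653 in sham DKO and 60.6 to 114 on all other arrays. *Myl4*, the atrial light chain, rose in DKO by 1.87 ± 0.55 and had 0.90 ± 0.55 in CTL. The difference of 0.97 ± 0.78 was 0.02 without TAC DKO replicates 2 and 3.

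Markers of the cell types in the ventricle were set beside these results. Over all genes 2.74% rose and 4.2% fell in CTL, and 3.99% rose and 5.17% fell in DKO. Differences with an unadjusted p under 0.05 made up 3.12% of all genes above 0 and 2.24% below. The atrial list ranged from −0.34 to −0.30 in sham CTL, −0.11 to 0.20 in sham DKO, −0.29 to 0.13 in TAC CTL and −0.09 to 0.91 in TAC DKO, and none of its 15 members had an unadjusted p under 0.05 for the difference. Of 19 cardiomyocyte markers, 1 rose and 3 fell in CTL and 5 fell in DKO, with 2 differences below 0 at that p (*Hspb7* and *Mybpc3*). Of 24 endothelial markers, *Esam* and *Icam2* had differences above 0 at an unadjusted p under 0.05, of 0.27 ± 0.10 and 0.36 ± 0.14. The endothelial list had lain higher in sham CTL (0.05 to 0.40) than in sham DKO (−0.08 to 0.07), with overlap. Of 17 smooth muscle and pericyte markers, 2 rose in CTL and 6 in DKO, and *Acta2*, smooth muscle α-actin, rose in DKO by 0.99 and had 0.38 in CTL, a difference of 0.61 ± 0.32. All 5 red blood cell genes called in CTL were also called in DKO, with hemoglobin *Hba-a1* at 0.87 and 0.77. The part of these markers in the differences above was not tested.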

How the data were processed

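Total RNA of the ventricle was hybridised to Illumina bead chips, 1 array a sample. The deposited values are linear intensity values that the authors exported from GenomeStudio (version 2010.3, per the submitters' processing notes), and the background correction and normalization behind them were not given in the sources used here. Sorted values were equal for at least 99.77% of ranks among sham arrays and 99.95% among TAC arrays within a tolerance of 0.2%, but for 0.404% between the sets, whose array medians were 47.5 and 58.6 units, as quantile normalization of each set on its own gives. No depth applies to arrays, whose number limits the precision.

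Values were log2 transformed with no offset and quantile normalized over the 20 arrays in limma 3.58.1 (R 4.3.3), which removed a median shift of 0.30 between sets. A mean per group was fitted with lmFit and eBayes (16 residual and 6.64 prior degrees of freedom), and TAC over sham was tested in each genotype together with the difference. Calls needed a fold change over 1.5 and an adjusted p (Benjamini-Hochberg, over all 45281 probes) under 0.05. Intervals are 95%. Of the probes, 34885 named 1 gene, 18 several and 10378 none, and 34807 symbols were updated by gene identifier. The floor was the 95th percentile of receptor probes. A group below it on all arrays gave a bound of at least N-fold from the bright group's mean over the floor.

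Of 1084 entries in 38 gene lists, 990 were measured, each by its brightest probe, and list means are the mean log2 deviation of members from their own mean over the 20 arrays. Named genes were those called for the difference, the 12 highest and 12 lowest statistics of it above the floor, the 12 largest shared rises and 8 largest shared falls, the 6 clearest calls in each genotype alone, up to 3 strongest and 2 most different members of each list, and a fixed set of hypertrophy and methylation genes. Members of a list mentioned beyond this rule, and probes with a difference over 1, were named after their values were seen. The members and lists were chosen with earlier results of these data known. Mice are the replicates, as the study's methods give separate animals. The procedure was tested on simulated data. Alternatives were other scaling, an offset of 50, a floor filter, array weights, a trended robust prior, a replicate block, separate fits, no fold threshold, 1 probe or the mean of probes a gene, and leaving out arrays. Promoters come from RefSeq.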

Additional observations from a re-analysis of the deposited data

Results flagged for a closer look

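Among 180 groups of values examined, 18 had 1 array further from the rest than Dixon's criterion allows, where chance gives about 1 in 20 groups. All values here are log2 intensities unless a list is named. In *Nap1l5*, TAC CTL replicate 6 had 5.89 against 5.51 to 5.65 on the other arrays of its group. In *Krt8*, TAC CTL replicate 4 had 6.47 against 5.83 to 6.06. *Ankrd1* had 13.4 in TAC CTL replicate 1, below 13.75 to 13.94. *Nppa* had 13.07 in TAC CTL replicate 6, below 14.55 to 14.96, and 14.45 in TAC DKO replicate 2, below 14.74 to 14.85.

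*Masp1* had 8.84 in sham DKO replicate 2, below 9.35 to 9.44. *Tpm2* stood high in 3 arrays, at 7.36 in sham CTL replicate 2 (others 5.59 to 5.65), at 6.62 in sham DKO replicate 4 (others 5.91 to 5.99) and at 8.89 in TAC CTL replicate 4 (others 6.79 to 7.49). *Myl4* had 7.93 in sham DKO replicate 3 (others 7.58 to 7.61) and 9.80 in TAC CTL replicate 4 (others 7.46 to 8.29). *Myh6* had 12.74 in sham DKO replicate 1 (others 12.43 to 12.47), and *Dnajb4* had 8.79 in sham CTL replicate 2 (others 8.38 to 8.42).

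Among list means, the heat shock list had −0.29 in TAC CTL replicate 1 (others −0.13 to −0.08), the endothelial list 0.40 in sham CTL replicate 4 (others 0.05 to 0.07) and the skeletal muscle list 0.90 in sham CTL replicate 2 (others −0.30 to −0.22). The median of the probes called higher in CTL was 0.05 in sham DKO replicate 4, and that of the probes called higher in DKO was 0.05 in sham CTL replicate 4, in both cases against −0.02 to −0.01 on the other arrays. The difference in response between genotypes passed the limma test for *Nap1l5*, at −1.17.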

How the results depend on the processing

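Counts below give, in this order, probes called higher and lower in CTL, higher and lower in DKO, and higher and lower in both. With each array of the deposited values centred on its median they were 186, 3848, 204, 4166, 126 and 3380, so the split between higher and lower calls within a genotype rests on the scaling. With 50 added before log2 they were 436, 1004, 627, 1259, 335 and 920. At an adjusted p under 0.05 alone they were 5308, 4636, 6964, 5729, 4056 and 3694, with 1 probe called in opposite directions. With 1 probe a gene there were 523 and 801 calls in CTL, 987 lower in DKO, and 413 and 732 in both, with 1 difference above 0. With no further normalization the median response of all probes was 0.28 in CTL and 0.29 in DKO, and the median difference was 0 under every scaling. The number of probes with a response in DKO above CTL was 1 with a trended robust prior, 1 with the replicate block and 2 without TAC DKO replicates 2 and 3 (*Krt8* at an adjusted p of 0.0168, 0.0295 and 0.0236, and *Gdnf* at 0.0236 in the last). The heat shock count was 1 without TAC DKO replicates 2 and 3 and 5 with no sham CTL replicates 1 and 2, a setting chosen after seeing the data, under which the correlation was 0.858. The sarcomere count was 3 without TAC DKO replicates 2 and 3.

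When each array was left out in turn, calls ranged from 710 to 893 and 1442 to 1611 in CTL, 1028 to 1296 and 1839 to 2061 in DKO, and 564 to 668 and 1338 to 1473 in both, with 0 to 1 in opposite directions. Differences ranged from 0 to 1 above and 0 to 1 below 0, the heat shock count from 4 to 12, the sarcomere count from 3 (without sham CTL replicate 4) to 8 (without TAC DKO replicate 4), the correlation from 0.886 to 0.91 and the slope from 1.09 to 1.19. With no sham CTL replicates 1 and 2, *Nap1l5* had −1.19 at an adjusted p of 0.0818. No called response or difference of the named probes changed sign under the alternatives run, and other probes were not checked for this.

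The labels do not say that a replicate number marks a shared litter or day, and it was not used as a pairing since not every same-numbered pair correlated. Same-numbered arrays of different groups had a median correlation of deviations of 0.02 (−0.19 to 0.38), and 9 of 20 arrays correlated best with their own number, a hint from the data and not from the design. With the replicate block the calls were 966, 1764, 1406, 2158, 779 and 1630, with a correlation of 0.921 and a slope of 1.14. Probes near the floor carry understated fold changes, and *Nppa* lies near the top of the range.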
